A study of Mus musculus with 12 samples.

Results

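The 10 RNAs described here are long noncoding RNAs of the mouse liver that carry established names. They are the snoRNA host RNAs Gas5, Snhg1, Snhg12 and Snhg15, the nuclear RNAs Neat1 and Malat1, the microRNA host Mir22hg, and the imprinted RNAs Kcnq1ot1, H19 and Meg3. They were taken by symbol from the 55414 genes of the deposited count table, and each symbol matched 1 Ensembl gene. Livers came from female C57BL/6J mice, 8 to 12 weeks old, in 4 groups of 3 mice, and no group carried a transgene or a deleted gene. The first intraperitoneal injection was 0.9% NaCl or 300 mg/kg FeSO4, an acute iron overload. PBS or 10 mg/kg dexamethasone (DEX, a synthetic glucocorticoid) followed 6 h later, and livers were isolated 2 h after that, which is 8 h after the first injection. The groups are named NaCl/PBS, NaCl/DEX, FeSO4/PBS and FeSO4/DEX, so that NaCl/PBS mice received neither agent. The comparisons address how acute iron overload changes liver RNAs and whether it alters their response to DEX.

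Small nucleolar RNAs (snoRNAs) guide the chemical modification of ribosomal RNA. Most of them are cut out of introns, and in genes such as Gas5 and the Snhg genes the spliced exons that remain form a noncoding RNA. These spliced RNAs are short-lived in growing cells, because ribosomes engage them at short reading frames and nonsense-mediated decay then removes them. Many snoRNA hosts start transcription at a stretch of pyrimidines, the 5′ terminal oligopyrimidine tract that is also found in the mRNAs of ribosomal proteins. Neat1 is the scaffold of paraspeckles, and Malat1 resides in nuclear speckles. Kcnq1ot1, H19 and Meg3 are transcribed from 1 parental chromosome, and H19 is abundant in the fetal liver but silenced after birth.

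The start windows of the 4 snoRNA hosts are shown because a tract at the start is the sequence feature they are best known to share. Each line runs 5′ to 3′ from 30 bases before an annotated start to 50 bases from it on, and capitals mark the longest run of C and T within 15 bases of the start. The windows are RefSeq sequences on GRCm38.p6, at chr1:161035136-161035215 on the plus strand for Gas5 (the second of 2 annotated starts, chosen with the sequences of both known), chr19:8723457-8723536 on the plus strand for Snhg1, chr4:132308648-132308727 on the plus strand for Snhg12 and chr11:6528711-6528790 on the minus strand for Snhg15.
Gas5: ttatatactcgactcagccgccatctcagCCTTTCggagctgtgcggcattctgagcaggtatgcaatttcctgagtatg
Snhg1: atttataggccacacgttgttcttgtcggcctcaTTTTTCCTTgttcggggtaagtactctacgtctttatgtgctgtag
Snhg12: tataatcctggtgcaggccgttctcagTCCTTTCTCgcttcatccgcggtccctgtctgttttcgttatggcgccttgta
Snhg15: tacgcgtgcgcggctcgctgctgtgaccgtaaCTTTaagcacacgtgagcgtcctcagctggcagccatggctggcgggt

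Snhg1 and Snhg12 each held a run of 9 pyrimidines near the start, and 7.73% of the 32851 promoters in the same table had a run of that length or longer. The longest run at the Gas5 start shown was 6 bases, which 29.2% of promoters reached, and at its other annotated start 3 bases, which 88.5% reached. In Snhg15 the longest run was 4 bases, a length found in 69.1% of promoters. Promoter windows of 300 bases, 250 of them before the start, were available for 8 of the 10 RNAs with 10 starts in all, and Neat1 and H19 had no entry. Both strands of these windows were searched for 4 motifs. The E-box CACGTG, a site for basic helix-loop-helix factors, occurred in Snhg15 and in no other of the 8 (7.15% of all promoters), and lies within the window shown, after the start. TGTTCT, a half-site of the glucocorticoid receptor, occurred in Snhg1 and in no other (19% of promoters), and lies before the start in the window shown. TGACNNNGC, the core of the antioxidant response element, was found in Kcnq1ot1 and in no other (12.4%), and TGATGNAAT, a form of the ATF4 element, in none (0.965%). These matches describe letters and are not shown to be bound.

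The libraries held between 16335651 and 23827340 counted reads, with a median of 19602514. Of the 10 RNAs, 9 had enough reads to be tested with 13857 genes in all, and the lowest value of a tested RNA in any library was 12 reads. H19 was left out by the filter on low counts. Values below are normalized counts, which are reads scaled to a common library size, for mouse 1, 2 and 3 of each group. Log2 fold changes (LFC) are given with their standard error (SE), and the false discovery rate (FDR) comes from edgeR's quasi-likelihood test with Benjamini-Hochberg adjustment over all 13857 genes. A gene was called at an FDR of 0.05 or less. An exact permutation test of 3 against 3 mice cannot fall below p = 0.1, so none was used for single genes. Overlap of groups is given as a description, and the share of all tested genes without overlap was not counted. In whole liver, fewer cells of a type and less RNA per cell cannot be told apart. Markers of hepatocytes made up 91780 to 141100 CPM, reads scaled to the library total, in every library, and those of neutrophils 2.44 to 42.4.

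After FeSO4 without DEX, the 4 snoRNA hosts rose, and so did Kcnq1ot1. Snhg15 was 6.90 times, Snhg1 4.50 times, Snhg12 2.80 times, Kcnq1ot1 1.84 times and Gas5 1.57 times as high in FeSO4/PBS as in NaCl/PBS mice. Neat1, Malat1, Mir22hg and Meg3 were not called. Of the 9 RNAs tested, 5 were thus called higher and 0 lower, in a comparison in which 27.2% of all tested genes were called higher and 27.3% lower. Their median LFC was 0.65, and that of all tested genes was -0.02. The plot of normalized counts per mouse shows these values side by side.

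**Figure D1:**
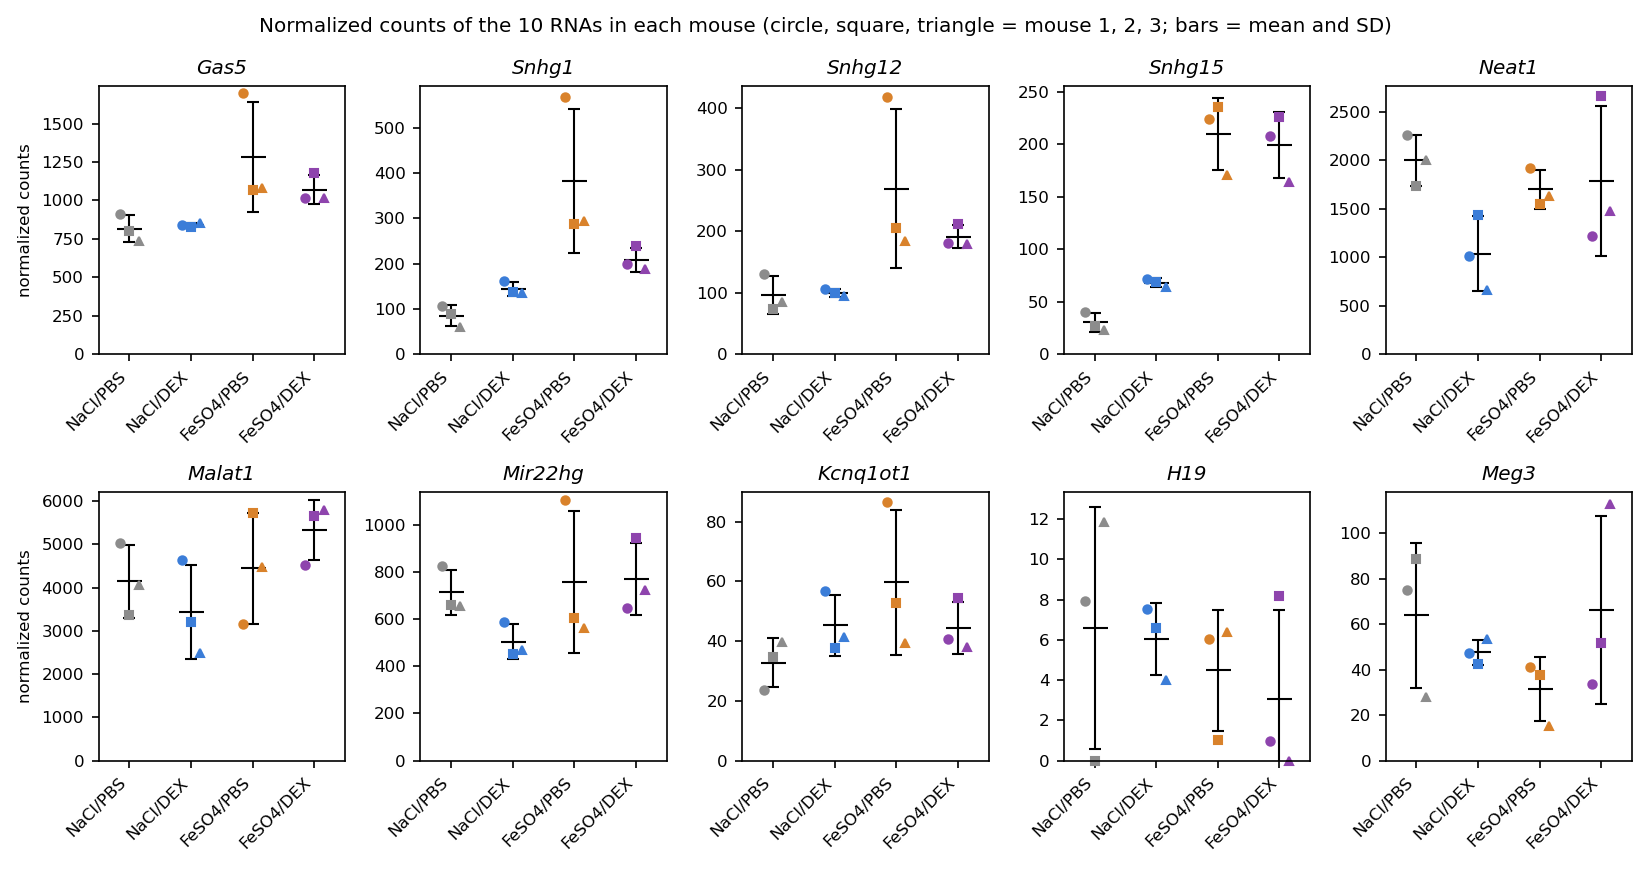
Normalized counts (y axis, linear, from 0) of the 10 RNAs in the 4 groups (x axis), with 1 symbol per mouse and bars for the mean and SD of 3 mice. All FeSO4/PBS mice lie above all NaCl/PBS mice for Gas5, Snhg1, Snhg12 and Snhg15, and FeSO4/PBS mouse 1 is the highest of its group for 7 of the 9 tested RNAs, the exceptions being Snhg15 and Malat1. The share of all tested genes for which this mouse is the highest was not counted.

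Snhg15 hosts 1 annotated snoRNA gene, Snora9, and lies at chr11:6473829-6478870 on the minus strand (GRCm39, as all gene positions below). NaCl/PBS mice had 40.3, 27.1 and 22.9 normalized counts of Snhg15, and FeSO4/PBS mice had 223.8, 235.0 and 170.9. Every FeSO4/PBS mouse lay far above every NaCl/PBS mouse, with an LFC of 2.79 ± 0.23 (FDR 3.6e-07). DEX alone also raised this RNA. NaCl/DEX mice held 71.9, 68.6 and 63.4 counts, all above the NaCl/PBS mice, and the LFC was 1.16 ± 0.23 (FDR 0.0041). After FeSO4, no further change with DEX was called. FeSO4/DEX mice had 207.8, 225.7 and 164.1 counts, which overlapped the FeSO4/PBS values, and the LFC was -0.08 with a 95% interval from -0.47 to 0.31. In order of level, FeSO4/PBS and FeSO4/DEX did not differ beyond their spread, and NaCl/DEX and then NaCl/PBS followed, each called lower than the group before it.

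Snhg1 hosts 8 annotated snoRNA genes and lies at chr19:8700319-8703812 on the plus strand. Its normalized counts were 106.5, 87.9 and 60.1 in NaCl/PBS and 567.5, 286.9 and 293.3 in FeSO4/PBS mice. The groups did not overlap, mouse 1 of FeSO4/PBS was far above the other two, and the LFC was 2.17 ± 0.27 (FDR 1.4e-05). Without that mouse the LFC was 1.77 ± 0.20 (FDR 8.5e-06). With DEX alone Snhg1 had 161.0, 136.3 and 134.9 counts, all above NaCl/PBS, but the LFC of 0.76 ± 0.27 was not called (FDR 0.082). FeSO4/DEX mice had 199.1, 237.9 and 187.9 counts. All of them lay below the FeSO4/PBS mice, yet the LFC of -0.88 ± 0.25 was not called over all genes (unadjusted p = 0.00375 in the edgeR fit, FDR 0.70). On the opposite strand, exons of Slc3a2, the heavy chain of several amino acid transporters, cover 21.3% of the exon bases of Snhg1. Slc3a2 also rose after FeSO4, by an LFC of 1.70 ± 0.17 (FDR 2.6e-06), and the part of reads from that overlap in the Snhg1 values was not tested. After DEX alone the LFC of Slc3a2 was 0.07 ± 0.17 (FDR 0.85).

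Snhg12, with 5 annotated snoRNA genes, lies at chr4:132035905-132038762 on the plus strand. In NaCl/PBS mice it had 130.2, 72.9 and 84.6 normalized counts, against 418.3, 205.5 and 183.6 in FeSO4/PBS mice. The groups were separate and the LFC was 1.48 ± 0.28 (FDR 0.00058), or 1.02 ± 0.21 (FDR 0.0013) without FeSO4/PBS mouse 1, the highest of its group. DEX alone gave 105.2, 98.7 and 93.6 counts of Snhg12, within the range of the NaCl/PBS mice. The LFC was 0.04, with a 95% interval from -0.54 to 0.61. FeSO4/DEX mice had 179.8, 212.1 and 179.5 counts, which overlapped FeSO4/PBS (LFC -0.51 ± 0.28, FDR 0.78).

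Gas5 hosts 10 annotated snoRNA genes, and its RNA is also known to bind the DNA-binding domain of the glucocorticoid receptor as a decoy. It lies at chr1:160861793-160866118 on the plus strand. Gas5 had 912.8, 801.4 and 734.7 normalized counts in NaCl/PBS and 1697, 1070 and 1084 in FeSO4/PBS mice. Again no mice overlapped and mouse 1 stood highest, with an LFC of 0.65 ± 0.16 (FDR 0.0032), or 0.40 ± 0.11 (FDR 0.007) without it. With scaling by library size alone the LFC was 0.33 and no longer called (FDR 0.071), and that scaling moved the median LFC of all tested genes to -0.34. NaCl/DEX mice had 838.3, 828.3 and 851.8 counts of Gas5, inside the NaCl/PBS range, and the LFC was 0.04, with a 95% interval from -0.27 to 0.35. FeSO4/DEX mice had 1018, 1177 and 1015 counts, overlapping FeSO4/PBS (LFC -0.26 ± 0.16, FDR 0.80). Zbtb37, which overlaps Gas5 on the opposite strand, fell after FeSO4 (LFC -1.66, FDR 3.4e-05), and the part of reads from the overlap in the Gas5 values was not tested.

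Levels of different RNAs can be compared only per length, here in CPM divided by the length of the canonical transcript in kilobases. On that scale, NaCl/PBS mice had a mean level of 61.6 for Gas5, 26.6 for Malat1, 20.6 for Mir22hg and 4.51 for Neat1. Gas5, which had fewer reads than Malat1 in each library, stood above it per length of the canonical transcript, which is 669 bases in Gas5. Reads were counted over all annotated exons, however, which span 4228 bases in Gas5 and 7886 in Malat1. The order of Gas5 and Malat1 thus depends on the length used. The value of Neat1 was taken over its long form, and a share of its reads from the short form would raise the level per length.

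The snoRNAs themselves could not be followed. All 24 snoRNA genes annotated inside the 4 hosts, which are 10 in Gas5, 8 in Snhg1, 5 in Snhg12 and 1 in Snhg15, had 0 reads in the 12 libraries. These genes cover 15.8% of the annotated exon bases of Gas5, 17.8% in Snhg1, 16.4% in Snhg12 and 2.64% in Snhg15. The libraries were made from polyadenylated RNA, and STAR counts a read that overlaps a host exon and a snoRNA for neither gene.

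Other snoRNA hosts were counted beside the 4. Of 16 further noncoding hosts, 15 were tested and 10 were called higher and 0 lower after FeSO4 without DEX, with a median LFC of 1.17. Over all tested genes, 27.2% were called higher and 27.3% lower. The largest rises were those of Snhg5, from a mean of 67.7 to 532.3 normalized counts (LFC 2.97 ± 0.31, FDR 2.8e-06), and Snhg3, from 40.7 to 279.1 (LFC 2.80 ± 0.30, FDR 3.7e-06). FeSO4/PBS mouse 1 was also the highest for Snhg5, at 859.8 counts against 331.6 and 405.6 in the other two, but not for Snhg3. Without this mouse, 9 of the 15 were called higher, and 8 to 10 with any 1 mouse left out or under other scalings, filters and fits. Of 20 protein-coding snoRNA hosts, 18 were called higher and 0 lower, with a median LFC of 0.64. The list holds genes of ribosomal proteins, translation factors and nucleolar proteins, and also Hspa8, Ipo7 and Tpt1. Without FeSO4/PBS mouse 1, 17 were called higher, and 16 to 18 with any 1 mouse left out. Other scalings, filters and fits gave 12 to 19 called higher and 0 to 1 lower. Nop58, a core protein of box C/D snoRNPs, rose from 314.1 to 2365 (LFC 2.91 ± 0.16, FDR 2e-08), and the helicase gene Eif4a1 from 3120 to 8495 (LFC 1.45 ± 0.15, FDR 3.3e-06).

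Nonsense-mediated decay is known to remove the spliced hosts, and its factors were called in both directions at shares near those of all tested genes. After FeSO4 without DEX, 3 of 10 factors were called higher, 3 lower and 4 were not called, beside 27.2% higher and 27.3% lower over all genes, and the median LFC was 0.01. The largest rise was that of Smg1, the kinase that phosphorylates Upf1 (LFC 1.59 ± 0.32, FDR 0.00092). Its FeSO4/PBS mice differed widely, at 1419, 5287 and 4601 normalized counts against 1241, 1114 and 1402 in NaCl/PBS mice. Here mouse 1, the highest for Gas5, Snhg1 and Snhg12 but not for Snhg15, was the lowest. It was also the highest for Neat1, Mir22hg, Kcnq1ot1 and Meg3, which host no snoRNA, and a link of Smg1 with the hosts was not tested. The largest fall was that of Upf3b, which joins the decay factors to the exon junction complex, with an LFC of -1.004 ± 0.17 (FDR 0.0002).

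Without FeSO4, DEX moved a pair of the 9 tested RNAs. Snhg15 was called higher (above), where 6.5% of all tested genes were called higher, and Neat1 was called lower, where 7.15% were. Snhg1, Mir22hg and the other 5 were not called, and the median LFC of the 9 was 0.04, against -0.02 over all genes. This comparison shares its NaCl/PBS mice with the FeSO4 comparison above. Among the 15 other noncoding snoRNA hosts tested, 1 was called higher and 0 lower. This was Snhg3, with 30.2, 66.4 and 25.4 normalized counts in NaCl/PBS and 264.1, 266.1 and 303.1 in NaCl/DEX mice, an LFC of 2.79 ± 0.30 (FDR 2.9e-05). Of the 20 protein-coding hosts 4 were called higher and 0 lower, led by Nop58 (LFC 1.11 ± 0.15, FDR 0.00026) and Nop56, its partner in box C/D snoRNPs (LFC 1.00 ± 0.13, FDR 0.00012). The decay factors Upf3b (LFC -0.58 ± 0.16, FDR 0.031) and Smg6, an endonuclease (LFC -0.44 ± 0.12, FDR 0.024) were called lower and 0 of the 10 higher. These calls rested on few mice. Without NaCl/PBS mouse 1 or any 1 NaCl/DEX mouse, 0 decay factors were called lower, and without NaCl/PBS mouse 2 or 3, NaCl/DEX mouse 1 or 3 or FeSO4/DEX mouse 1, 2 of the protein-coding hosts were called higher in place of 4.

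The 3′ ends of Neat1 and Malat1 bear on how a library of polyadenylated RNA sees them. Malat1 and the long form of Neat1 end at an A-rich tract that is encoded in the genome and folds into a triple helix, after cleavage of a tRNA-like RNA from the end, and carry no ordinary poly(A) tail, whereas the short form of Neat1 is polyadenylated. The tracts are shown in capitals at the end of 80 bases from GRCm39, at chr19:5846010-5846089 for Malat1 and chr19:5874736-5874815 for Neat1, both on the minus strand.
Malat1: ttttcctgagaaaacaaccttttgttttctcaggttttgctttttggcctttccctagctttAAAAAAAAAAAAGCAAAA
Neat1: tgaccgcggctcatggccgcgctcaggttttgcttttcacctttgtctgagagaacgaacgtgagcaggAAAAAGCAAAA

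The tract of Neat1 was 11 bases long and ended at the last annotated base of the gene, at position 22397 of 22397. That of Malat1 was 18 bases long and ended at position 7593, with 293 annotated bases after it. The genes are neighbours on chromosome 19, Malat1 at 5845717-5853602 and Neat1 at 5874736-5897132, with 21134 bases between them. Each is annotated as 1 exon block. How far capture by these A-rich ends differs from that of poly(A) tails was not tested.

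Neat1 fell after DEX in mice given no iron. Its normalized counts were 2265, 1734 and 1998 in NaCl/PBS and 1017, 1434 and 658.5 in NaCl/DEX mice. All NaCl/DEX mice lay below all NaCl/PBS mice, and the LFC was -0.95 ± 0.28 (FDR 0.037). The call rested on few mice. Leaving out NaCl/PBS mouse 1 gave an FDR of 0.13, NaCl/PBS mouse 3 of 0.092, NaCl/DEX mouse 1 of 0.10 and NaCl/DEX mouse 3 of 0.15. FeSO4/PBS mice had 1925, 1545 and 1627 counts of Neat1, overlapping NaCl/PBS (LFC -0.23, 95% interval -0.78 to 0.31, FDR 0.50). FeSO4/DEX mice had 1218, 2666 and 1476 counts, with mouse 2 far above the others, and overlapped both FeSO4/PBS and NaCl/DEX.

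Malat1 was the most read of the 10 RNAs and varied among mice of every group. NaCl/PBS mice had 5042, 3363 and 4049 normalized counts, NaCl/DEX mice 4629, 3208 and 2477, FeSO4/PBS mice 3150, 5724 and 4473, and FeSO4/DEX mice 4527, 5658 and 5785. Each pair of groups overlapped. The LFC was 0.10 (95% interval -0.37 to 0.57) after FeSO4 and -0.27 (95% interval -0.74 to 0.19) after DEX without iron, and FeSO4/DEX against NaCl/DEX is given below. Between group means in order of level, no neighbours were called different.

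Paraspeckle proteins and factors that process the Neat1 3′ end were called in both directions after FeSO4 without DEX, while Neat1 itself was not called. Of 12, 4 were called higher, 4 lower and 4 were not called, beside 27.2% higher and 27.3% lower over all tested genes, and the median LFC was 0.23. With scaling by library size alone 2 were called higher. Sfpq, which Neat1 needs for paraspeckle assembly, rose from 973.5 to 2421 normalized counts (LFC 1.32 ± 0.12, FDR 1.2e-06). Hnrnph3 fell from 312.3 to 134.9 (LFC -1.21 ± 0.17, FDR 4.7e-05), and Cpsf6, a part of the 3′ cleavage complex that favours the short form, had an LFC of -0.74 ± 0.13 (FDR 0.00022). Without FeSO4/PBS mouse 2, 2 of the 12 were called lower. After DEX without iron 1 of the 12 was called, Sfpq, which was higher (LFC 0.40 ± 0.12, FDR 0.039). Leaving out any 1 of the 6 mice compared took this call away.

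Mir22hg is the primary transcript of miR-22 and lies at chr11:75352365-75357502 on the plus strand, next to Tlcd2. The mature strands of miR-22 are shown because they are what this gene is known for. Capitals mark the seed, bases 2 to 8, which pairs with target RNAs, and RefSeq places the strands on GRCm38.p6 at chr11:75463734-75463755 and chr11:75463772-75463793, both on the plus strand.
miR-22-5p: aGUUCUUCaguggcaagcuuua
miR-22-3p: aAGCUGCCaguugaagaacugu

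The Mir22 gene had 0 reads in the 12 libraries, so what follows concerns the host alone. Mir22hg had 823.6, 661.1 and 655.1 normalized counts in NaCl/PBS, and 588.2, 451.3 and 469.2 in NaCl/DEX mice. The NaCl/DEX mice were all lower, but the LFC of -0.51 ± 0.23 was not called (FDR 0.17). FeSO4/PBS mice had 1103, 603.2 and 561.1 counts, mouse 1 high and the others below NaCl/PBS, and the LFC was 0.08 (95% interval -0.36 to 0.53). FeSO4/DEX mice had 647.6, 942.0 and 722.9 counts, all above the NaCl/DEX mice. Same-strand exons of Mir22 and Tlcd2 cover 10.7% of the exon bases, where reads would be counted for neither gene.

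Kcnq1ot1 runs antisense to Kcnq1 and silences its neighbours on the paternal chromosome. It lies at chr7:142731402-142850327 on the minus strand and was read at low levels. NaCl/PBS mice had 23.7, 34.6 and 39.8 normalized counts, and FeSO4/PBS mice had 86.7, 52.9 and 39.5. The groups overlapped, since FeSO4/PBS mouse 3 lay just under NaCl/PBS mouse 3, and the LFC was 0.88 ± 0.32 (FDR 0.031). The call was lost without FeSO4/PBS mouse 1 (LFC 0.52 ± 0.32, FDR 0.19), NaCl/PBS mouse 1 (FDR 0.12) or NaCl/PBS mouse 2 (FDR 0.056), with scaling by library size alone (FDR 0.14), with the replicate block (FDR 0.056) and when these 6 libraries were fitted alone (FDR 0.061). Counts were 56.9, 37.6 and 41.3 in NaCl/DEX and 40.6, 54.4 and 38.1 in FeSO4/DEX mice, and no comparison of these groups was called.

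H19 lies at chr7:142129262-142133957 on the minus strand and was close to the limit of detection. NaCl/PBS mice had 11, 0 and 14 reads, NaCl/DEX mice 7, 7 and 4, FeSO4/PBS mice 6, 1 and 5, and FeSO4/DEX mice 1, 6 and 0. All groups overlapped. H19 was left out by the filter on low counts, and in a fit of 25013 genes without that filter it was not called in any of the 5 comparisons, with LFCs from -1.09 ± 0.93 (FeSO4/DEX against NaCl/DEX, FDR 0.47) to -0.14 ± 0.81 (NaCl/DEX against NaCl/PBS, FDR 1). Of the 11 other genes listed for the imprinted clusters of Kcnq1ot1 and H19, 8 were tested after FeSO4. Of these, 3 were called higher and 1 lower, beside 27.2% higher and 27.3% lower over all tested genes, and the median LFC was 0.04. Tnfrsf23, which encodes a decoy receptor of the TNF family, rose from 14.1 to 159.5 normalized counts (LFC 3.49 ± 0.53, FDR 8.7e-05), again with FeSO4/PBS mouse 1 highest at 316.5 against 95.6 and 66.3. Slc22a18, a transporter gene, rose as well (LFC 0.44 ± 0.14, FDR 0.016), and Osbpl5, which encodes a lipid transfer protein, fell (LFC -0.72 ± 0.26, FDR 0.028). Without FeSO4/PBS mouse 1 the counts were 2 and 0, since Slc22a18 and Osbpl5 were no longer called, and without NaCl/PBS mouse 2 they were 1 and 0. The call of Osbpl5 was also lost without NaCl/PBS mouse 1 or 3 or FeSO4/PBS mouse 3. After DEX without iron, 0 of the 8 were called. Cd81, the tested gene to the right of H19, was also called higher after FeSO4 without DEX (LFC 0.34 ± 0.12, FDR 0.023). Cdkn1c, Kcnq1, Tssc4 and Nap1l4 were tested and not called there, and Igf2, Ascl2 and Phlda2 had too few reads.

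Meg3 is expressed from the maternal chromosome of the Dlk1-Dio3 cluster and lies at chr12:109506877-109538165 on the plus strand. Its mice differed widely within groups other than NaCl/DEX, with 74.8, 88.8 and 27.9 normalized counts in NaCl/PBS, 47.2, 42.3 and 53.4 in NaCl/DEX, 41.3, 37.6 and 15.3 in FeSO4/PBS and 33.8, 51.7 and 113.0 in FeSO4/DEX. No comparison was called. The LFC was -0.997 ± 0.49 after FeSO4 without DEX (FDR 0.097), and FDR 0.026 was reached when NaCl/PBS mouse 3, the lowest of its group, was left out. FeSO4/DEX mouse 3 stood apart at 113.0, and the neighbouring noncoding RNA Rian stood apart in the same mouse, at 86.8 normalized counts against 13.5 and 16.3 in mouse 1 and 2. Over the 12 libraries, log2 values of Meg3 and Rian had a Pearson r of 0.76, which is a description of libraries that share groups. Dlk1, the paternally expressed protein-coding gene of the cluster, had 0 reads in all 6 NaCl mice. FeSO4/PBS mice had 33, 13 and 1 reads of Dlk1 and FeSO4/DEX mice 6, 4 and 12. The gene thus passed the filter on low counts only through FeSO4 libraries, so its tests could only come out higher after FeSO4. Its calls after FeSO4 (FDR 0.0036) and in FeSO4/DEX against NaCl/DEX (FDR 0.022) are therefore given as a description. The second call was lost without NaCl/DEX mouse 2 or FeSO4/DEX mouse 3. Dlk1 and Rian were the tested genes of the 5 listed for this cluster.

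Markers of liver cell types were also counted after FeSO4 without DEX, where 27.2% of all tested genes were called higher and 27.3% lower. Neutrophil markers, of which 4 of the 5 tested were called higher, summed to 3.20 to 10.2 CPM in NaCl/PBS and 33.7 to 42.4 in FeSO4/PBS mice, and no marker was at 0 in either group. Kupffer cell and macrophage markers, of which 5 of 6 were called lower, summed to 245.7 to 296.9 in NaCl/PBS and 144.4 to 167.2 in FeSO4/PBS mice. Of the lymphocyte markers 1 of 5 was called lower, of the endothelial markers 1 of 6 was called higher and 3 lower, and of the stellate cell markers 2 of 6 higher and 1 lower. Of the cholangiocyte markers 2 of 5 and of the hepatocyte markers 3 of 5 were called higher and 0 lower. In FeSO4/DEX against NaCl/DEX mice 4 of the 5 neutrophil markers were called higher (25.6 to 31.1 against 2.44 to 3.61, with Ly6g at 0 in NaCl/DEX) and 3 of the 6 Kupffer cell markers lower. Over all tested genes, 22.4% were called higher and 20.9% lower there. The part of these cell types in the changes of the snoRNA hosts and imprinted genes was not tested.

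FeSO4 was also compared with NaCl in separate mice, those given DEX. In FeSO4/DEX against NaCl/DEX, 5 of the 9 RNAs were called higher and 0 lower, where 22.4% of all tested genes were called higher and 20.9% lower. These were Snhg15 (LFC 1.55 ± 0.21, FDR 5.5e-05), Snhg12 (LFC 0.94 ± 0.29, FDR 0.018), Neat1 (LFC 0.78 ± 0.28, FDR 0.036), Mir22hg (LFC 0.61 ± 0.23, FDR 0.042) and Malat1 (LFC 0.63 ± 0.24, FDR 0.046). The groups of Snhg15, Snhg12 and Mir22hg did not overlap, while those of Neat1 and Malat1 did. Gas5 (LFC 0.35 ± 0.16, FDR 0.091) and Snhg1 (LFC 0.53 ± 0.26, FDR 0.12) were higher in all 3 FeSO4/DEX mice than in all NaCl/DEX mice but were not called. Without FeSO4/DEX mouse 2 or without NaCl/DEX mouse 3, Snhg15 was the 1 RNA still called, and without FeSO4/PBS mouse 1, which enters through the shared estimate of the spread, 7 were called. With 1 mouse left out, the call of Mir22hg was lost in 7 of the 12 fits (FDR up to 0.21), that of Malat1 in 6 (up to 0.18), that of Neat1 in 4 (up to 0.30) and that of Snhg12 in 2 (up to 0.064), and that of Snhg15 in 0.

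**Figure D2:**
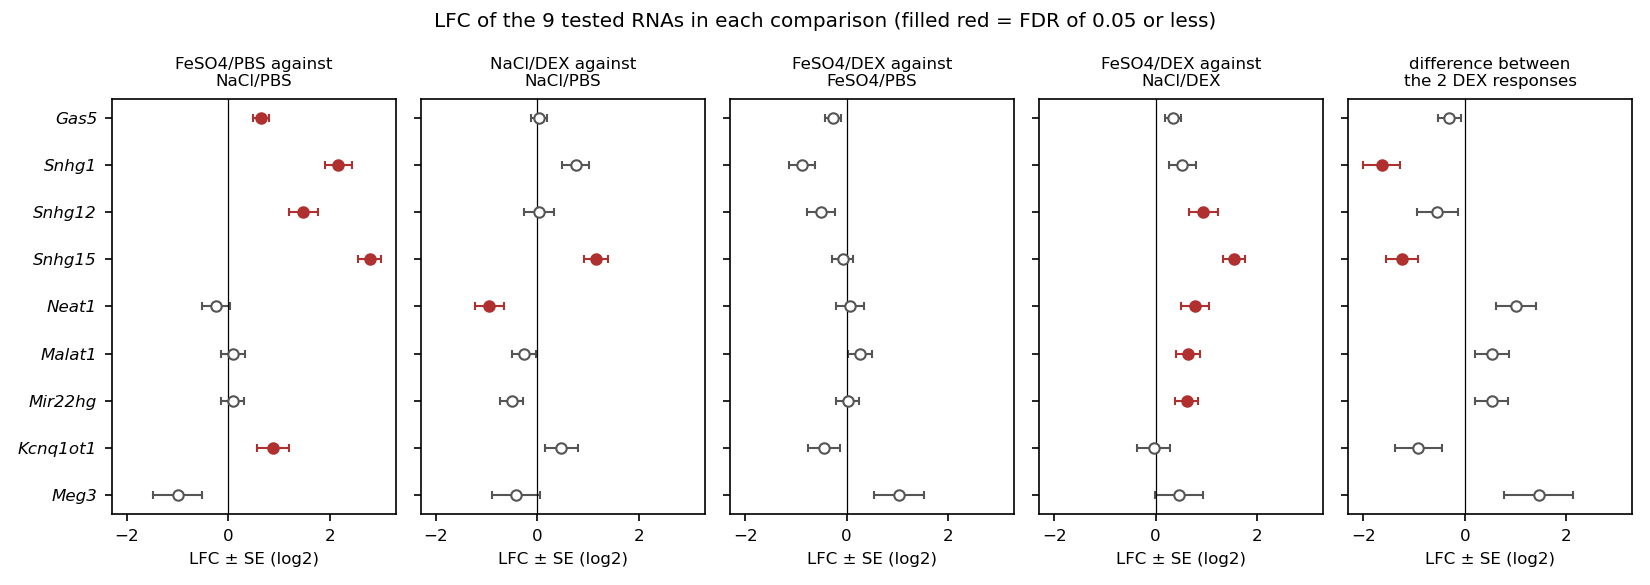
LFC with SE (x axis, log2) of the 9 tested RNAs (y axis) in the 4 comparisons and for the difference between both DEX responses, filled where the FDR was 0.05 or less. After FeSO4 in PBS mice Snhg15, Snhg1 and Snhg12 lie furthest to the right, at 2.79, 2.17 and 1.48, and no point is filled for FeSO4/DEX against FeSO4/PBS.

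In the same mice, 6 of the 15 other noncoding snoRNA hosts were called higher and 0 lower, with a median LFC of 0.68, led by Snhg10 (LFC 2.73 ± 0.96, FDR 0.033), which had 1, 5 and 1 reads in NaCl/DEX and 9, 14 and 18 in FeSO4/DEX mice and lost its call without NaCl/DEX mouse 1 or 3 or FeSO4/DEX mouse 2 or 3, and Snhg5 (LFC 1.76 ± 0.29, FDR 0.00027). Of the 20 protein-coding hosts 9 were called higher and 1 lower, the latter being Ipo7, an import receptor gene (LFC -0.50 ± 0.11, FDR 0.0025). Without NaCl/DEX mouse 1, NaCl/DEX mouse 2 or FeSO4/DEX mouse 2, 5 protein-coding hosts were called higher, and with scaling by library size alone 2. Nop58 (LFC 1.51 ± 0.15, FDR 3.6e-06) and Eif4a1 (LFC 0.70 ± 0.15, FDR 0.0017) rose most. Decay factors were called higher for 2 of 10 and lower for 4, paraspeckle and 3′ processing genes higher for 3 of 12 and lower for 4, and genes of the chromosome 7 clusters higher for 3 of 8 and lower for 1. Beside all these counts stand 22.4% higher and 20.9% lower over all tested genes. Without NaCl/DEX mouse 1 or 2 or FeSO4/DEX mouse 3, 1 decay factor was called higher and 2 lower, and without NaCl/DEX mouse 3 or FeSO4/DEX mouse 2, 1 was called higher. The plot of LFCs in both sets of mice places the 4 hosts among the others.

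**Figure D3:**
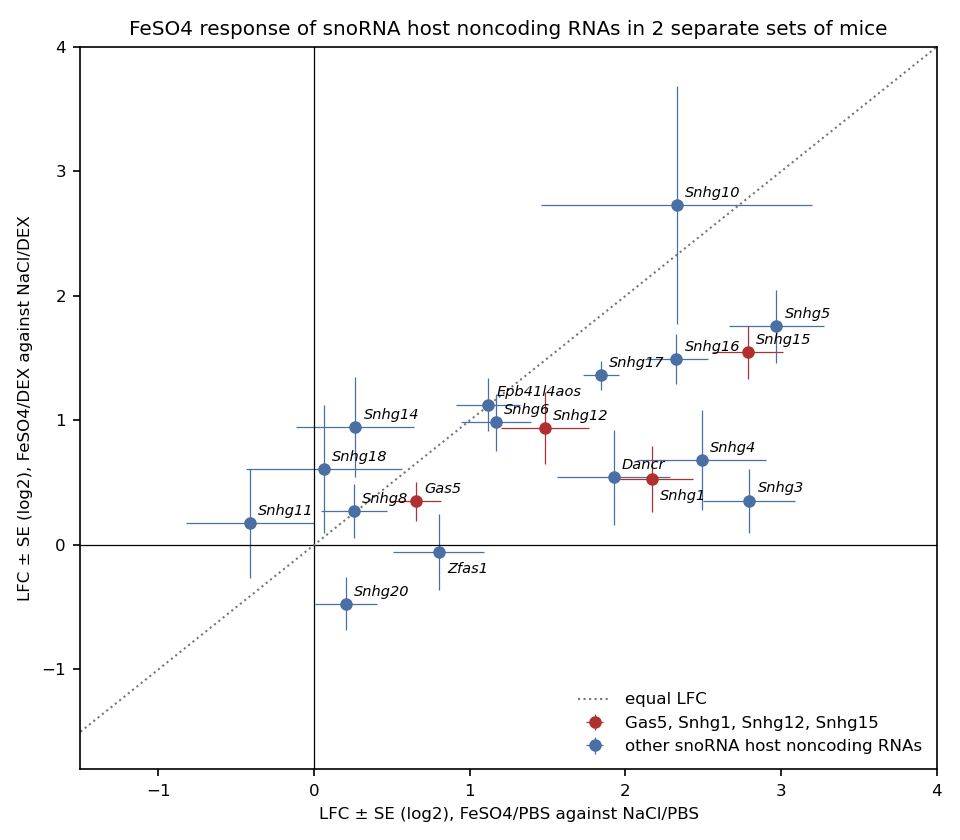
LFC with SE (log2) of the 4 snoRNA hosts (red) and 15 other noncoding snoRNA hosts (blue) after FeSO4 in mice given PBS (x axis) and in mice given DEX (y axis), with the line of equal LFC. The 2 comparisons share no mouse, and Snhg1 lies well below the line, at 2.17 and 0.53, as does Snhg15, at 2.79 and 1.55.

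When DEX followed FeSO4, none of the 9 RNAs passed the threshold. In FeSO4/DEX against FeSO4/PBS, 0 of 13857 genes were called (0.0%), although 900 genes had an unadjusted p under 0.05 in the edgeR fit and DESeq2 called 10. Snhg1 was the 1 of the 9 RNAs with such a p. Without a filter on low counts, 170 of 25013 genes were called in this comparison, Snhg1 among them (FDR 0.00064). The LFCs of the 9 lay between -0.88 (Snhg1) and 1.04 (Meg3), with a median of -0.08, and this comparison shares its FeSO4/PBS mice with the first FeSO4 comparison.

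Groups that differ in both injections complete the order of levels. In NaCl/DEX against FeSO4/PBS mice, where 46.3% of all tested genes were called in either direction, 6 of the 9 RNAs were called, all lower in NaCl/DEX. These were the 4 snoRNA hosts, with LFCs from -1.63 (Snhg15) to -0.61 (Gas5), Neat1 (LFC -0.71 ± 0.28, FDR 0.05) and Mir22hg (LFC -0.59 ± 0.23, FDR 0.047). In FeSO4/DEX against NaCl/PBS mice, where 52.3% were called, Snhg15 (LFC 2.71, FDR 5e-07), Snhg1 (LFC 1.29, FDR 0.0012) and Snhg12 (LFC 0.98, FDR 0.011) were higher, and Gas5 (LFC 0.39, FDR 0.054) was not called. Snhg1, Snhg12 and Gas5 thus had the same order of group means as Snhg15, from FeSO4/PBS over FeSO4/DEX and NaCl/DEX to NaCl/PBS. Between neighbours in that order, only FeSO4/DEX and NaCl/DEX differed for Snhg12 (FDR 0.018), and no neighbours did for Snhg1 and Gas5. Neat1 and Mir22hg were lowest in NaCl/DEX mice, Kcnq1ot1 in NaCl/PBS and Meg3 in FeSO4/PBS mice.

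Whether the DEX response differed between mice given FeSO4 and mice given NaCl was tested directly, as the difference between both LFCs. For Snhg1 it was -1.64 ± 0.37 (FDR 0.017), from 0.76 after NaCl to -0.88 after FeSO4. For Snhg15 it was -1.24 ± 0.31 (FDR 0.029), from 1.16 to -0.08. Read the other way, these are also the amounts by which the FeSO4 response was smaller in mice given DEX. Of the 9 RNAs, 0 were called with a higher and 2 with a lower difference, where 2.99% of all tested genes were called higher and 3.2% lower. The difference of Snhg1 was called in each of the 12 fits that left out 1 mouse, with values from -1.86 to -1.28, whereas that of Snhg15 lost its call in 7 of the 12, with FDRs up to 0.081 and values from -1.54 to -1.09. Neat1 (1.02 ± 0.39, FDR 0.16) and Meg3 (1.46 ± 0.68, FDR 0.24) were not called. Among the other hosts, Snhg3 (-2.44 ± 0.39, FDR 0.0022), Nop58 (-1.41 ± 0.21, FDR 0.0015) and Nop56 (-1.38 ± 0.18, FDR 0.00049) had a called difference, and so did Sfpq (-0.83 ± 0.17, FDR 0.01). DESeq2 called a lower difference for 4 of the other noncoding and 6 of the protein-coding hosts, in place of 1 and 2, and leaving out NaCl/DEX mouse 2 or any 1 FeSO4/PBS mouse gave 4 to 5 of the protein-coding hosts. No decay factor, chromosome 7 cluster gene or gene of the Dlk1-Dio3 cluster was called for it.

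**Figure D4:**
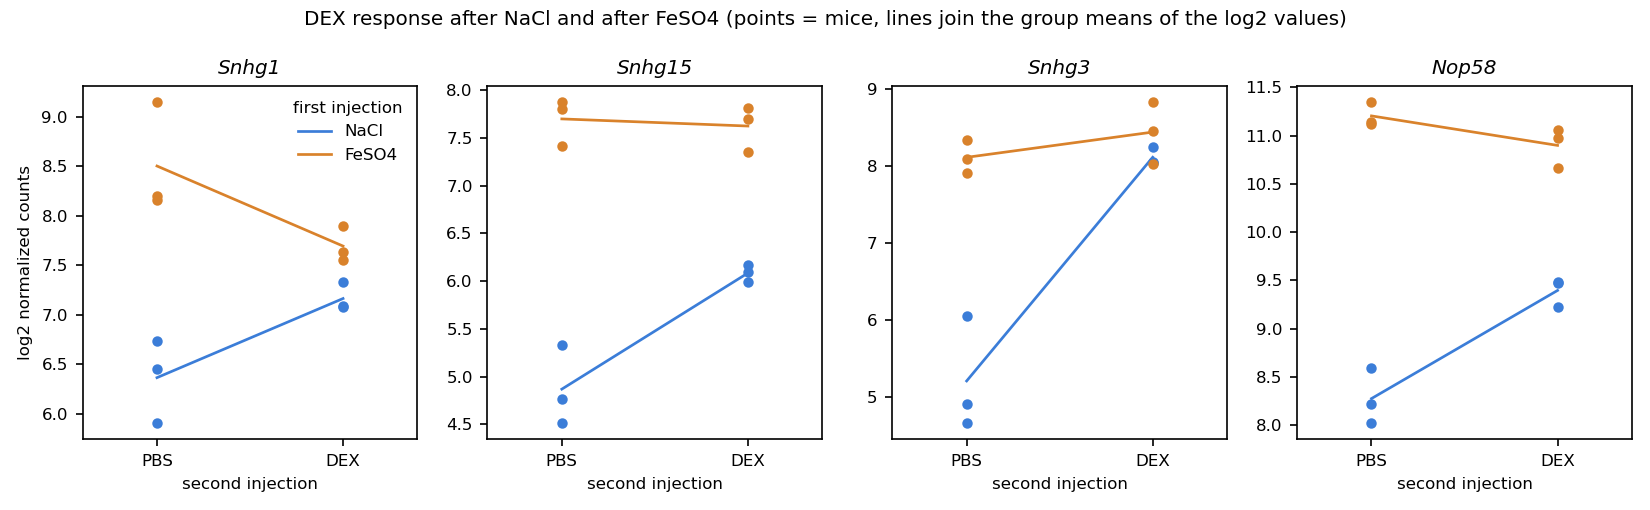
Log2 normalized counts (y axis) of Snhg1, Snhg15, Snhg3 and Nop58 after PBS or DEX (x axis) in mice given NaCl (blue) or FeSO4 (orange), with points for mice and lines between group means. The blue lines have fitted LFCs of 0.76, 1.16, 2.79 and 1.11, of which that of Snhg1 was not called, and the orange lines have fitted LFCs of -0.88, -0.08, 0.35 and -0.30, none of them called.

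Further noncoding RNAs of known names were called in both directions after FeSO4. Of 26 listed, 24 were in the table and 15 were tested, and 5 were called higher and 6 lower in FeSO4/PBS against NaCl/PBS, beside 27.2% higher and 27.3% lower over all tested genes, and the median LFC was -0.30. Mir17hg, the host of the miR-17-92 cluster, rose from 32.3 to 164.7 normalized counts (LFC 2.34 ± 0.30, FDR 2.1e-05), and Lncpint from 5.77 to 29.3 (LFC 2.29 ± 0.55, FDR 0.0031). The largest falls were those of Oip5os1, also known as Cyrano, from 1809 to 465.7 (LFC -1.96 ± 0.13, FDR 8e-08), and Jpx, an activator of Xist (LFC -1.36 ± 0.29, FDR 0.0013). Oip5os1 was also the 1 of the 15 called after DEX without iron, where it was lower (LFC -0.49 ± 0.13, FDR 0.018), a call lost without NaCl/PBS mouse 1 or 3 or NaCl/DEX mouse 2 or 3. With scaling by library size alone, 5 of the 15 were called lower after DEX, and without NaCl/PBS mouse 2, 2 were. In FeSO4/DEX against NaCl/DEX 4 were called higher, with Pvt1, a transcript next to Myc, in front (LFC 1.68 ± 0.31, FDR 0.00055), and 2 lower. Over all tested genes these shares were 22.4% and 20.9%. Without NaCl/DEX mouse 1 or 3 or FeSO4/DEX mouse 1, 2 were called higher, and without FeSO4/DEX mouse 2, 1 was. No difference between the DEX responses was called for them.

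Genes whose log2 values followed the 10 RNAs most closely over the 12 libraries were sought among 8958 genes with a mean of at least 100 normalized counts. The closest to Snhg15 was Nmd3, an export adaptor of the large ribosomal subunit, with a Pearson r of 0.99. For Snhg1 it was Rpl30 (r 0.97) and for Gas5 and Snhg12 Taf15 (r 0.98 in both), an RNA-binding protein gene. Next came the ribosomal protein genes Rps16 (r 0.98) and Rps9 (r 0.98) for Gas5, and Srp19 (r 0.97) and Rpl5 (r 0.97) for Snhg1. For Snhg12 these were Kars1 (r 0.97) and Eif4e2 (r 0.97), and for Snhg15 Srrm1 (r 0.99) and Cldn14 (r 0.98). Neat1 was followed most closely by Tbc1d17 (r 0.93), Malat1 by Stat5b (r 0.93), Mir22hg by Trim41 (r 0.94), Kcnq1ot1 by Dph5 (r 0.88) and Meg3 by Nat9 (r 0.86). These values describe 12 libraries that share their groups and are each among the 3 highest of 8958.

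Genomic neighbours moved in different directions. Wdr74, the tested gene to the right of Snhg1, rose after FeSO4 (LFC 1.15, FDR 2.8e-05), as Slc3a2 on its left did. Frmd8, next to Neat1, rose by an LFC of 2.90 (FDR 1.3e-06) while Neat1 was not called. Myo1g, next to Snhg15, fell (LFC -1.03, FDR 0.0035) where Snhg15 rose, while Ccm2 on its other side rose (LFC 0.39, FDR 0.025). Neither neighbour of Snhg12, Taf12 and Trnau1ap, was called after FeSO4.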

How the data were processed

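Liver RNA from 12 mice was measured by RNA-seq. The authors made the deposited table of raw counts per gene from stranded poly(A) libraries, sequenced single-end for 100 cycles and aligned with STAR to mm39 with GENCODE junctions, counting reads per gene in STAR. The counts were deposited without normalization. Which strand column was kept is not given in the sources used here. Of 649 genes covered to at least 95% by exons of the opposite strand, 6 had a mean of 100 or more reads. Symbols came from GENCODE by Ensembl ID.

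Counts were fitted with edgeR 4.0.16 (filterByExpr, TMM scaling, quasi-likelihood test) in R 4.3.3, with a mean per group over all 12 libraries. P-values were adjusted over 13857 genes by the Benjamini-Hochberg method, and the intervals of LFCs are normal intervals of 95%. Normalized counts are reads scaled to a library of 19810818, and counting error at the lowest levels limits precision. The fit was tested on simulated counts. DESeq2 1.42.0, other scalings and filters, the replicate block and leaving out each mouse were tried. Each group held separate mice.

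The members, lists and tests were chosen with earlier results of these data known. The lists were other noncoding and protein-coding snoRNA hosts, nonsense-mediated decay factors, paraspeckle genes, 2 imprinted gene lists, other named noncoding RNAs and markers of 7 cell types. From each list, up to 2 genes per direction with the largest called LFC were named, further genes only where a neighbour, an overlap or a single mouse bore on a result. The alternatives for list counts were added after the data were seen. Some genes that this rule or an overlap would name are not reported here.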

Additional observations from a re-analysis of the deposited data

Results flagged for a closer look

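Snhg1 and Snhg15 had a response to DEX that differed between mice given FeSO4 and mice given NaCl, by the interaction in edgeR's quasi-likelihood fit. The DEX LFC after FeSO4 minus that after NaCl was -1.64 ± 0.37 for Snhg1 (FDR 0.017) and -1.238 ± 0.31 for Snhg15 (FDR 0.029). In NaCl mice all 3 DEX mice lay above all 3 PBS mice for both RNAs. In FeSO4 mice all DEX mice lay below all PBS mice for Snhg1, and the groups overlapped for Snhg15.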

How the results depend on the processing

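Of 846 LFCs of the 9 RNAs recomputed under an alternative, 759 kept direction and side of the threshold, 44 lost and 21 gained a call, 22 uncalled values changed sign, and 0 called values turned. The cause of these changes was not tested. For FeSO4/PBS against NaCl/PBS, the 5 RNAs called higher became 3 with scaling by library size alone and 3 with an LFC beyond 1 required, and 4 to 5 with 1 mouse left out, while the 0 called lower became 1 with library size alone, 1 without a filter on low counts and 0 to 1 with 1 mouse left out (Meg3). For NaCl/DEX against NaCl/PBS, the 1 called higher became 2 with DESeq2, without a filter, with the replicate block and with the compared libraries alone (Snhg1 was added), and 1 to 2 with 1 mouse left out. The 1 called lower became 2 with library size alone, without a filter and with the compared libraries alone (Mir22hg was added), 0 with an LFC beyond 1 and 0 to 2 with 1 mouse left out. For FeSO4/DEX against FeSO4/PBS, 1 RNA (Snhg1) in place of 0 was called lower without a filter. For FeSO4/DEX against NaCl/DEX, the 5 called higher became 2 with library size alone, 1 with an LFC beyond 1 and 1 to 7 with 1 mouse left out. Malat1 lost this call with library size alone (FDR 0.16), DESeq2 size factors in edgeR (0.051), at least 10 counts in every library (0.051) and the replicate block (0.06), Neat1 with library size alone (0.11) and the compared libraries alone (0.062), and Mir22hg with library size alone (0.13). For the difference between the DEX responses, 2 in place of 0 were called higher without a filter (Neat1, Meg3) and 0 to 1 with 1 mouse left out (Mir22hg without FeSO4/PBS mouse 1), and the 2 called lower became 1 to 2. Library size alone moved the median LFC of all genes to -0.34 for FeSO4 in PBS mice, -0.18 for FeSO4 in DEX mice and -0.18 for DEX in NaCl mice, and turned the uncalled LFCs of Malat1 and Mir22hg after FeSO4 to -0.22 and -0.24.

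Mice with the same number did not deviate together (r between -0.092 and 0.129 over pairs of groups), so the numbers were not taken to pair them. With the replicate block, 4 RNAs in place of 5 were called higher in FeSO4/PBS against NaCl/PBS (without Kcnq1ot1), 2 in place of 1 in NaCl/DEX against NaCl/PBS (Snhg1 was added) and 4 in place of 5 in FeSO4/DEX against NaCl/DEX (without Malat1).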
